A study of Mus musculus with 6 samples.

Results

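The genes described here act in mitosis: the cyclins and kinases that start it, the spindle checkpoint, the kinetochore, the motors of the spindle, the machinery of anaphase and the proteins of cytokinesis. They are 42 named genes, listed by function out of 18193 genes to which a probe set of the array could be assigned. The list was chosen with earlier results of these data known. Each was read through its brightest probe set, the one with the highest mean log2 intensity over all arrays among those annotated with that gene alone. This gave values for 41 of the 42 genes, and all 41 passed the filter on low values (a log2 intensity of at least 4 on at least 3 of 6 arrays). Ccnb1 was not analysed here.

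The arrays hold RNA of ovaries dissected from mouse embryos at E15.5, 3 arrays from embryos with Dmrt1 conditionally deleted (knockout) and 3 from wild type. Dmrt1 encodes a DM domain transcription factor of the gonad. The labels give the same age and tissue for both groups and number the samples of each as replicates 1 to 3. They name no Cre line, strain, litter or sex chromosome typing, and leave unsaid whether each replicate is its own animal, so the p-values cover only sample-to-sample spread, which may be technical. Whole ovaries were profiled, and in such samples fewer cells of a type and less RNA per cell cannot be told apart.

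A dividing cell enters mitosis when cyclins of the A and B type activate the kinase Cdk1, is held before anaphase by the spindle checkpoint until every kinetochore is attached, and leaves mitosis when the anaphase promoting complex marks securin and the cyclins for destruction. Transcripts of many of these proteins accumulate late in the cell cycle, and promoters of such genes often carry a CHR element (cell cycle genes homology region) near CCAAT boxes, which are bound by the factor NF-Y. In the fetal ovary the germ cells stop dividing mitotically when they enter meiosis, while somatic cells go on dividing, so mitotic transcripts come from a mixed population.

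Dmrt1 itself was dim throughout, at log2 3.10, 2.58 and 2.90 in knockout and 3.08, 3.09 and 3.70 in wild type, in replicate order as in all such series here. The groups overlapped below the filter level, so Dmrt1 does not check the labels. Xist, which coats the inactive X chromosome of female cells, was at or below log2 2 over its 3 probe sets on knockout replicate 1 and between 9.16 and 11.41 on the other arrays. On each of the 3 probe sets knockout replicates 2 and 3 also lay below every wild-type array. None of the 3 passed (lowest limma adjusted p = 0.22). Markers of the labelled tissue were present: the germ cell helicase Ddx4 read log2 10.18 to 11.03 and the pregranulosa factor Foxl2 log2 7.01 to 8.23, while of 6 Sertoli and testis markers 3 passed the filter and 3 did not. Amh, a hormone of Sertoli cells, read at most log2 2.17, Sox9 read log2 3.60 to 4.36, and Ptgds and Aard read above log2 9 on every array. The median intensity of an array was lower in knockout (13.15 to 13.40) than in wild type (14.37 to 14.74). Leaving out knockout replicate 1 moved several of the differences described below, and 4 of the 41 members changed sign without it. Values without that array are given for some genes only, so a gene described without such a value may also depend on it.

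Promoters of 34 of the 42 genes were matched by symbol in a RefSeq table of build GRCm38.p6, and the 250 bases before each start site were searched on both strands for TTTGAA, the core of the CHR element, and for CCAAT. The motifs differ in letters and were counted separately, whether or not they overlapped. TTTGAA was found for 12 of the 34 genes (35.3%) and for 18.3% of the 27025 genes in the table. CCAAT was found for 25 of the 34 (73.5%), against 37.5% of all genes. Both motifs stood in the same promoter for 11 of the 34 (32.4%), against 6.45% of all genes. A match is a description of the letters and not a site shown to be bound.

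Shown here are the 200 bases before the start site of the 5 members with an unadjusted p under 0.05, a choice made after their values were seen. Each runs 5′ to 3′ on the strand of its gene, and capitals mark TTTGAA or CCAAT on either strand.
Plk1: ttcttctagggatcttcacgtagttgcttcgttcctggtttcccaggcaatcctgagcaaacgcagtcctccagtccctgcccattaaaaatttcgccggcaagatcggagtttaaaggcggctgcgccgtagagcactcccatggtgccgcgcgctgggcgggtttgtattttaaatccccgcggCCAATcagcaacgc
Bub3: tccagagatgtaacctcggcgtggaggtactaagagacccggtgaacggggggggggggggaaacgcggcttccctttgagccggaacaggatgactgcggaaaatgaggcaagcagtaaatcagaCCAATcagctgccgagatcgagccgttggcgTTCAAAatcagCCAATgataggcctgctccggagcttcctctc
Kif2c: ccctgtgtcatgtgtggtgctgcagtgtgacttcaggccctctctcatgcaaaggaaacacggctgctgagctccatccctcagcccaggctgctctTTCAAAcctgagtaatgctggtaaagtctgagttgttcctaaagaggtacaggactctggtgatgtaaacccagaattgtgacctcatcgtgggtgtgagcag
Cdc20: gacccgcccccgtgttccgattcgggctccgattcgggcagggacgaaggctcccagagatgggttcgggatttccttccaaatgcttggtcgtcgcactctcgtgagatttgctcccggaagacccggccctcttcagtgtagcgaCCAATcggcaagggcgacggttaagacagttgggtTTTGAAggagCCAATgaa
Mki67: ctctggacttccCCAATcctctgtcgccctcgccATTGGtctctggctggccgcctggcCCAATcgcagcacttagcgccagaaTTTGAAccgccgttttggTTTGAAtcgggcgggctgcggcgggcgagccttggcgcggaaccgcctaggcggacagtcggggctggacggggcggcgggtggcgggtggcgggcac
The stretches lie at chr7:122159235-122159434 on the plus strand for Plk1, chr7:131560170-131560369 on the plus strand for Bub3, chr4:117178773-117178972 on the minus strand for Kif2c, chr4:118437344-118437543 on the minus strand for Cdc20 and chr7:135716380-135716579 on the minus strand for Mki67 (GRCm38.p6). In the Cdc20 promoter CCAAT began 53 bases and TTTGAA 18 bases before the start site, and a further CCAAT began at 8. Mki67 held TTTGAA at 116 and 98 bases with CCAAT upstream of both. Bub3 held the reverse complement of TTTGAA at 43 bases between CCAAT boxes at 74 and 32. Kif2c had TTTGAA on the opposite strand at 103 bases and no CCAAT in this window, and Plk1 had CCAAT at 14 bases and no TTTGAA.

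No member passed the test between knockout and wild-type ovaries. With limma and Benjamini-Hochberg adjustment over all 22040 tested probe sets, 0 of the 41 genes had an adjusted p under 0.05, where 3.55% of all 11897 tested genes did, 1.28% higher and 2.27% lower in knockout. At an unadjusted p under 0.05 there were 5 of 41 (12.2%), against 17.4% of all tested genes. Differences, here always the mean log2 intensity of knockout minus that of wild type, ran from -0.28 for Mki67 to 0.67 for Plk1. The 95% intervals lay within a 2-fold change in both directions for 40 of the 41 genes, and within a 1.5-fold change for 26. The exception at 2-fold was Plk1, whose interval ran from 0.25 to 1.08.

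The members leaned slightly to higher values in knockout. Their median difference was 0.11 and 27 of 41 were positive (65.9%), beside a median of 0.02 and 53.4% positive over all tested genes. With knockout replicate 1 left out the median was 0.07 and 23 of 41 were positive, beside a median of 0.02 over all tested genes. The lean was not tested. In 8 members (19.5%) all knockout arrays lay above all wild-type arrays, against 12.3% of all tested genes, and in 2 (4.88%) they lay below, against 11.4%. The 8 were Plk1, Kif2c, Cdc20, Bub3, Cdc25a, Foxm1, Espl1 and Birc5, and the 2 were Mki67 and Cenpe. When each array was centred on its median over all probe sets, the median of all tested genes moved to 0.16 and that of the members to 0.24, with 35 of 41 positive. The calls over all genes then changed from 152 higher and 270 lower to 506 higher and 128 lower, so the lean is given relative to all genes.

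**Figure D1:**
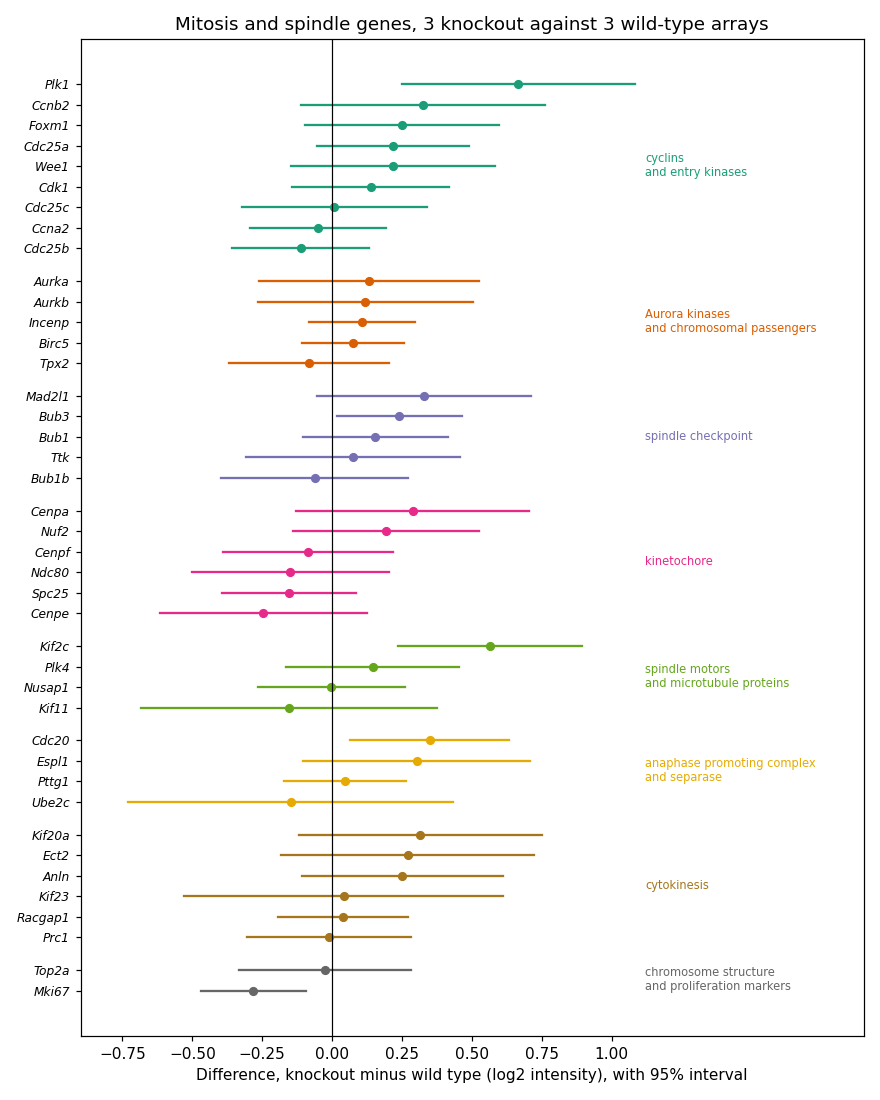
Difference between knockout and wild type (log2 intensity, horizontal axis) for the 41 genes, grouped by role; points are differences and bars are 95% intervals from limma, 3 arrays per group. The points run from -0.28 (Mki67) to 0.67 (Plk1), and only the bars of Plk1, Kif2c, Cdc20, Bub3 and Mki67 do not cross 0.

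Among the cyclins, kinases and phosphatases of mitotic entry, Plk1 had the highest difference. Plk1, the Polo-like kinase that drives centrosome maturation, spindle assembly and mitotic exit, read log2 6.77, 6.54 and 6.78 in knockout and 5.88, 5.90 and 6.32 in wild type. All knockout arrays lay above all wild-type arrays, with wild-type replicate 3 the nearest. The difference of 0.67 ± 0.19 (SE, n = 3 per group), a fold of 1.59, did not pass (limma adjusted p = 0.0656). It passed with quantile normalization (limma adjusted p = 0.0442), median centring (0.0311) and the average over each gene's tested probe sets (0.0425).

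Ccnb2, a B-type cyclin, read log2 10.34, 9.67 and 9.52 in knockout and 9.61, 9.48 and 9.46 in wild type. Knockout replicate 1 stood well above the wild-type arrays, replicate 2 just above them and replicate 3 among them, and the difference was 0.32 ± 0.20 (limma adjusted p = 0.394). Its value without knockout replicate 1 was 0.08. Cdc25a, a phosphatase that activates cyclin-dependent kinases, read log2 9.39, 9.27 and 9.32 in knockout against 9.17, 9.06 and 9.09 in wild type. These groups did not overlap, with a difference of 0.22 ± 0.12 (limma adjusted p = 0.358). Foxm1, the transcription factor of late cell cycle genes, read log2 6.91, 6.91 and 7.07 against 6.68, 6.73 and 6.72, also without overlap, and differed by 0.25 ± 0.16 (limma adjusted p = 0.41). On its dimmer tested probe sets the groups overlapped, with differences of 0.23 ± 0.17 and 0.08 ± 0.18 (limma adjusted p = 0.501 and 0.848).

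The remaining genes of mitotic entry overlapped between groups. Wee1, the kinase that holds Cdk1 inactive, differed by 0.22 and Cdk1 itself by 0.14. Ccna2, the A-type cyclin of S phase and mitotic entry, differed by -0.05 and the phosphatase genes Cdc25b and Cdc25c by -0.11 and 0.01. Over the 9 genes of this group 0 passed, 7 were positive, and the median difference was 0.22.

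Through their brightest probe sets the Aurora kinases and their partners gave the narrowest range of any role with 3 or more genes, from -0.08 to 0.13. Aurka, the kinase of spindle poles, differed by 0.13 and Aurkb, the kinase of the chromosomal passenger complex, by 0.12. Incenp, the scaffold of that complex, differed by 0.11. A dimmer Incenp probe set had every knockout array above every wild-type array and differed by 0.29 ± 0.15 (limma adjusted p = 0.316). Tpx2, which activates Aurka on the spindle, differed by -0.08. A dimmer Tpx2 probe set went the other way, at 0.31 ± 0.12 (limma adjusted p = 0.184). Birc5, the passenger protein survivin, read log2 11.69, 11.66 and 11.61 in knockout and 11.54, 11.60 and 11.60 in wild type. These groups stood apart by a small margin, at a difference of 0.08 ± 0.08 (limma adjusted p = 0.66). Over the 5 genes 0 passed and all 5 intervals of the brightest probe sets lay within a 1.5-fold change. That of the dimmer Incenp probe set did not, reaching 0.63.

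In the spindle checkpoint, Bub3, the subunit that brings Bub1 and BubR1 to kinetochores, read log2 11.67, 11.61 and 11.91 in knockout and 11.55, 11.46 and 11.46 in wild type. The groups did not overlap, and knockout replicate 3 was the highest array. Its difference was 0.24 ± 0.10 (limma adjusted p = 0.209, and 0.0498 with median centring). Mad2l1, the checkpoint protein that binds Cdc20, read log2 9.58, 9.14 and 8.94 against 8.81, 8.97 and 8.90, and differed by 0.33 ± 0.17 (limma adjusted p = 0.318), or by 0.15 with knockout replicate 1 left out. Here knockout replicates 1 and 2 lay above the wild-type arrays and replicate 3 lay among them. The kinase genes Bub1, Ttk and Bub1b differed by 0.15, 0.07 and -0.06 through their brightest probe sets. A dimmer Bub1b probe set went the other way, at 0.20 ± 0.16 (limma adjusted p = 0.543).

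Ttk, also called Mps1, the kinase that starts checkpoint signalling, differed in direction between its probe sets. The brightest read log2 9.77, 9.25 and 9.22 in knockout and 9.34, 9.50 and 9.18 in wild type, and the groups overlapped (0.07 ± 0.17, limma adjusted p = 0.854). The other probe set read log2 4.65, 5.35 and 5.05 in knockout and 5.78, 5.75 and 5.95 in wild type, with every knockout array below every wild-type array. That probe set fell by 0.81 ± 0.21 (limma adjusted p = 0.0468). The call was lost when knockout replicate 1 (limma adjusted p = 0.124) or 3 (0.0844) was left out, when wild-type replicate 1, 2 or 3 was (0.14, 0.139 and 0.195), and with quantile normalization (0.0839) or median centring (0.081).

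Kinetochore genes were the only role with 3 or more genes whose median difference was negative, at -0.12, with 4 of 6 below 0 and 0 past the threshold. This difference between roles was not tested. Cenpe, a kinetochore motor that moves chromosomes to the spindle equator, read log2 7.15, 6.94 and 7.36 in knockout and 7.40, 7.37 and 7.42 in wild type. The groups stood apart, with knockout replicate 3 close to wild type, and differed by -0.25 ± 0.17 (limma adjusted p = 0.45). Its other tested probe set read log2 6.49, 5.42 and 5.78 against 7.10, 6.81 and 6.46 with a difference of -0.89 ± 0.28 (limma adjusted p = 0.0939). It passed when knockout replicate 1 was left out (limma adjusted p = 0.023). On that probe set knockout replicate 1 reached into the wild-type range.

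Of the NDC80 complex, which binds microtubules, Ndc80 differed by -0.15, Spc25 by -0.15 and Nuf2 by 0.19. Cenpf, a large kinetochore protein of late cell cycle, differed by -0.09, and by -0.72 ± 0.31 on a dimmer probe set (limma adjusted p = 0.213). Cenpa, the histone variant that marks the centromere, read log2 8.53, 8.08 and 7.91 in knockout and 7.73, 8.02 and 7.91 in wild type, and differed by 0.29 ± 0.19 (limma adjusted p = 0.433). Knockout replicate 1 was again the highest array for Cenpa, and leaving it out gave a difference of 0.11.

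Among motors and other microtubule proteins, Kif2c came closest of all members to the threshold. Kif2c, also called MCAK, depolymerizes microtubules at kinetochores and corrects faulty attachments. It read log2 9.56, 9.46 and 9.27 in knockout and 9.08, 8.74 and 8.77 in wild type. Every knockout array lay above every wild-type array, and the difference of 0.57 ± 0.15 (SE, n = 3 per group), a fold of 1.48, had a limma adjusted p of 0.0502. A dimmer Kif2c probe set differed by 0.45 ± 0.20 in the same direction (limma adjusted p = 0.228), with knockout replicate 2 within the wild-type range. The brightest Kif2c probe set is of a kind open to several transcripts, and the dimmer one is not. The brightest probe sets of Cdc20, Incenp, Foxm1 and Cdc25c, among others, are also of that kind. When such probe sets were dropped, 30 members remained tested.

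Kif2c passed in 6 of 18 alternative fits, among them those with no filter (limma adjusted p = 0.0465), array weights (0.0264) and median centring (0.0179), as well as with knockout replicate 3 left out (0.043). Without knockout replicate 1 the difference was 0.50 (limma adjusted p = 0.146). Kif11, the motor that pushes spindle poles apart, differed by -0.15 through its brightest probe set, Nusap1, which bundles spindle microtubules, by less than 0.01 in size, and Plk4, the kinase of centriole duplication, by 0.14. Kif11 varied most of these, reading log2 8.73, 8.59 and 7.99 in knockout and 8.28, 9.01 and 8.48 in wild type. Its dimmer probe sets had positive differences, one of 0.28 ± 0.21 with overlapping groups and one of 0.62 ± 0.20 without overlap (limma adjusted p = 0.509 and 0.113). A dimmer Plk4 probe set differed by 0.46 ± 0.18, in the same direction as the brightest (limma adjusted p = 0.183).

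At the exit from mitosis, Cdc20, the activator of the anaphase promoting complex, had 3 tested probe sets, all with a positive difference. The brightest read log2 9.97, 10.15 and 9.81 in knockout and 9.66, 9.56 and 9.67 in wild type. These arrays did not overlap, and the difference of 0.35 ± 0.13 did not pass (limma adjusted p = 0.151). A second probe set read log2 7.43, 7.02 and 7.27 in knockout and 6.16, 6.51 and 6.46 in wild type. On it the gap between groups was wider than the spread within either, and this probe set rose by 0.86 ± 0.18 (limma adjusted p = 0.0202). The third read log2 6.72, 6.81 and 6.49 against 6.33, 6.02 and 6.10 and differed by 0.52 ± 0.18 (limma adjusted p = 0.12).

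The call on the second Cdc20 probe set was lost when knockout replicate 1 was left out (limma adjusted p = 0.0703), and likewise for wild-type replicates 1, 2 and 3 in turn (0.108, 0.0655 and 0.0739). It also stood for Cdc20 when probe sets open to several transcripts were dropped, and passed there (0.0146). This probe set and the one of Ttk were the 2 called of 69 tested probe sets of the members (2.9%), where 6.6% of all tested probe sets were called. The mean of the tested probe sets of Cdc20 rose by 0.58 (limma adjusted p = 0.0202). Of 23 members with more than 1 tested probe set, 13 had differences of the same sign on all of them.

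Ube2c, the ubiquitin-conjugating enzyme that works with the anaphase promoting complex, had the widest range over arrays of any member, at log2 9.98, 9.29 and 8.91 in knockout and 9.14, 9.73 and 9.76 in wild type. Its groups overlapped throughout (-0.15 ± 0.26). Pttg1, or securin, which holds separase inactive, differed by 0.05. Espl1, or separase, which cuts cohesin at anaphase, read log2 6.60, 6.21 and 6.28 in knockout and 5.90, 6.08 and 6.21 in wild type and differed by 0.30 ± 0.18 (limma adjusted p = 0.395), or by 0.18 with knockout replicate 1 left out. Its groups stood apart by less than 0.01 log2 units between knockout replicate 2 and wild-type replicate 3.

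**Figure D2:**
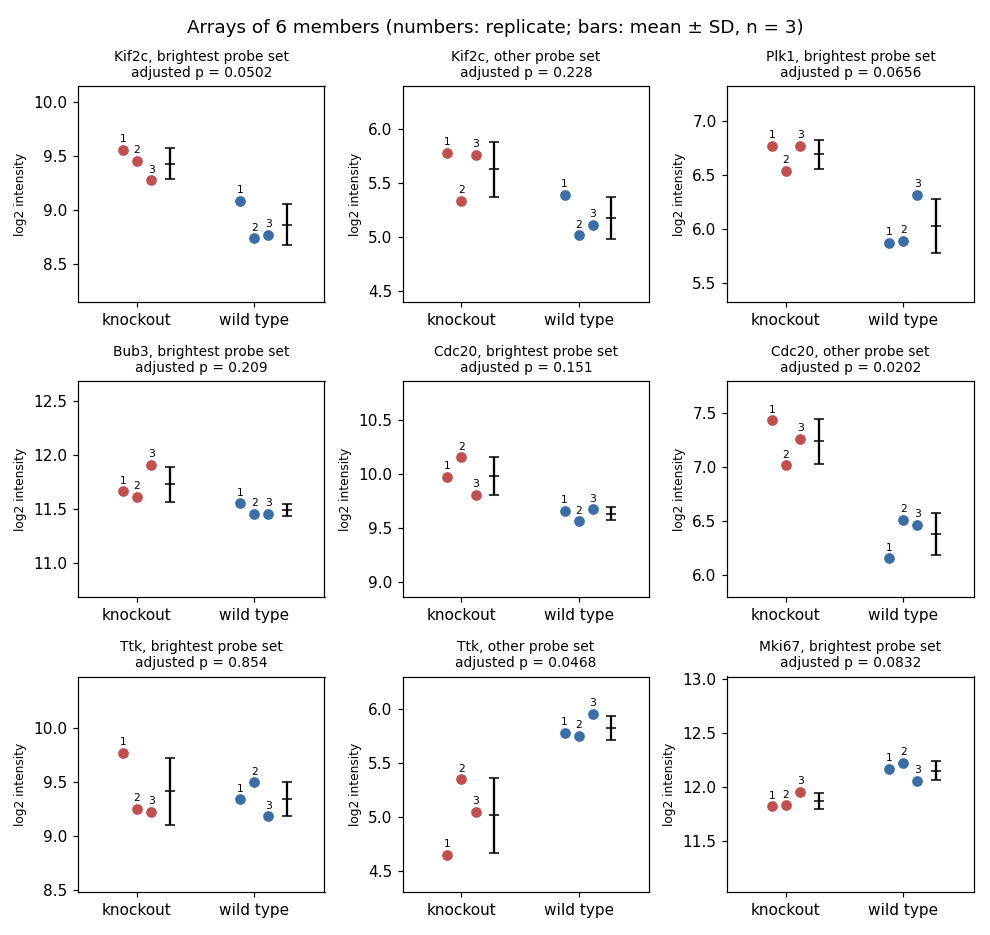
Log2 intensity by array for 9 probe sets of 6 members; circles are arrays numbered by replicate, bars are the mean ± SD of 3 arrays, and every panel spans 2 log2 units. The knockout mean is the higher in the panels of Kif2c, Plk1, Bub3 and Cdc20, the panels of Ttk differ in direction, and Mki67 is lower in knockout.

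The genes of cytokinesis had 5 of 6 positive differences and none that passed, and in 4 of the 6 knockout replicate 1 was the highest array. Ect2, the exchange factor that activates RhoA at the division plane, read log2 10.60, 10.84 and 9.91 in knockout and 10.14, 10.18 and 10.21 in wild type. Knockout replicates 1 and 2 lay above the wild-type arrays and replicate 3 below them. The difference was 0.27 ± 0.20 (limma adjusted p = 0.507), and leaving out knockout replicate 3 made it 0.54 (limma adjusted p = 0.0312). Anln, or anillin, the scaffold of the contractile ring, also had knockout replicates 1 and 2 above and replicate 3 below the wild-type arrays, at log2 9.79, 9.62 and 9.19 against 9.25, 9.30 and 9.29 (0.25 ± 0.16, limma adjusted p = 0.428, and 0.12 with knockout replicate 1 left out).

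Kif20a, a motor of the central spindle, differed by 0.32, and Kif23, the motor of the centralspindlin complex, by 0.04. For Kif23 the knockout arrays spanned log2 7.51 to 8.56, beyond both ends of the wild-type range of 7.65 to 8.14. A dimmer Kif23 probe set went the other way, at -0.36 ± 0.28 (limma adjusted p = 0.529). Racgap1, the partner of Kif23, differed by 0.04, and Prc1, which bundles antiparallel microtubules, by -0.01.

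Mki67, which encodes the proliferation marker Ki-67 that coats mitotic chromosomes, had the lowest difference of all members. It read log2 11.82, 11.83 and 11.95 in knockout and 12.17, 12.22 and 12.05 in wild type. All knockout arrays lay below all wild-type arrays, and the difference of -0.28 ± 0.08 (SE, n = 3 per group), a fold of 0.823, did not pass (limma adjusted p = 0.0832). It passed in 0 of 18 alternative fits, with differences from -0.33 to -0.14. Top2a, the topoisomerase that untangles mitotic chromosomes, differed by -0.03 with overlapping groups, and its dimmer tested probe set differed by 0.48 ± 0.20 (limma adjusted p = 0.202).

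The spread among knockout arrays followed one array more than the group. Knockout replicate 1 was the highest of the 6 arrays for 19 of 41 members (46.3%), against 16.8% of all tested genes, and the lowest for 1. Knockout replicate 3 was the highest for 3 (7.32%) and the lowest for 12 (29.3%), against 23.1% and 20.9% of all tested genes. Averaged over the members, the deviation from each gene's own mean was 0.18 log2 units on knockout replicate 1, 0.03 and -0.05 on replicates 2 and 3, with -0.08, -0.03 and -0.04 on the wild-type arrays. Without knockout replicate 1 the median difference was 0.07, 23 of 41 members were positive and 0 passed.

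The markers of other cell types differed between the same arrays. Of 8 germ cell markers 1 rose, Dppa3, a chromatin protein of early germ cells and oocytes, and their mean deviation was 1.08 on knockout replicate 1 and between -0.56 and 0.23 on the other arrays. The differences of these 8 markers ran from -0.21 to 4.22 with a median of 0.31, and 2 were negative. The mean deviation therefore need not hold for each marker. Their summed intensity ranged from 12182 to 17654 over knockout arrays and from 11428 to 13758 over wild-type arrays. Of 8 macrophage and leukocyte markers 2 fell, Ptprc and Mrc1, the mean deviation was -0.68 on knockout replicate 1 and between -0.01 and 0.31 elsewhere, and the summed intensity ranged from 6855 to 10684 over knockout arrays and from 9486 to 11613 over wild-type arrays. The dimmest single readings were log2 3.60 for Dppa3 on wild-type replicate 2 and log2 3.78 for Ptprc on knockout replicate 1. Of 5 tested endothelial markers 2 fell (Flt1 and Tek), of 3 tested erythroid markers 1 fell (Slc4a1), and of 8 pregranulosa and 8 stromal markers 0 passed. Of all tested genes 3.55% passed, 1.28% higher and 2.27% lower. All knockout arrays lay above all wild-type arrays for 4 of 8 pregranulosa markers (50%, against 12.3% of all tested genes) and below for 0. They lay below for 4 of 8 stromal markers (50%, against 11.4%) and above for 0. With knockout replicate 1 left out, Ptprc, Mrc1, Tek and Slc4a1 no longer passed (limma adjusted p = 0.0795, 0.0881, 0.116 and 0.0871), while Dppa3 and Flt1 did (0.00277 and 0.0481). Median centring ended the calls of Ptprc, Mrc1 and Tek, leaving out wild-type replicate 1 ended all 6, and leaving out wild-type replicate 3 ended all but Dppa3. The calls of Ptprc, Mrc1 and Tek also ended without wild-type replicate 2, those of Ptprc, Tek and Slc4a1 without knockout replicate 2, and that of Mrc1 without knockout replicate 3. The part of these markers in the member values was not tested.

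**Figure D3:**
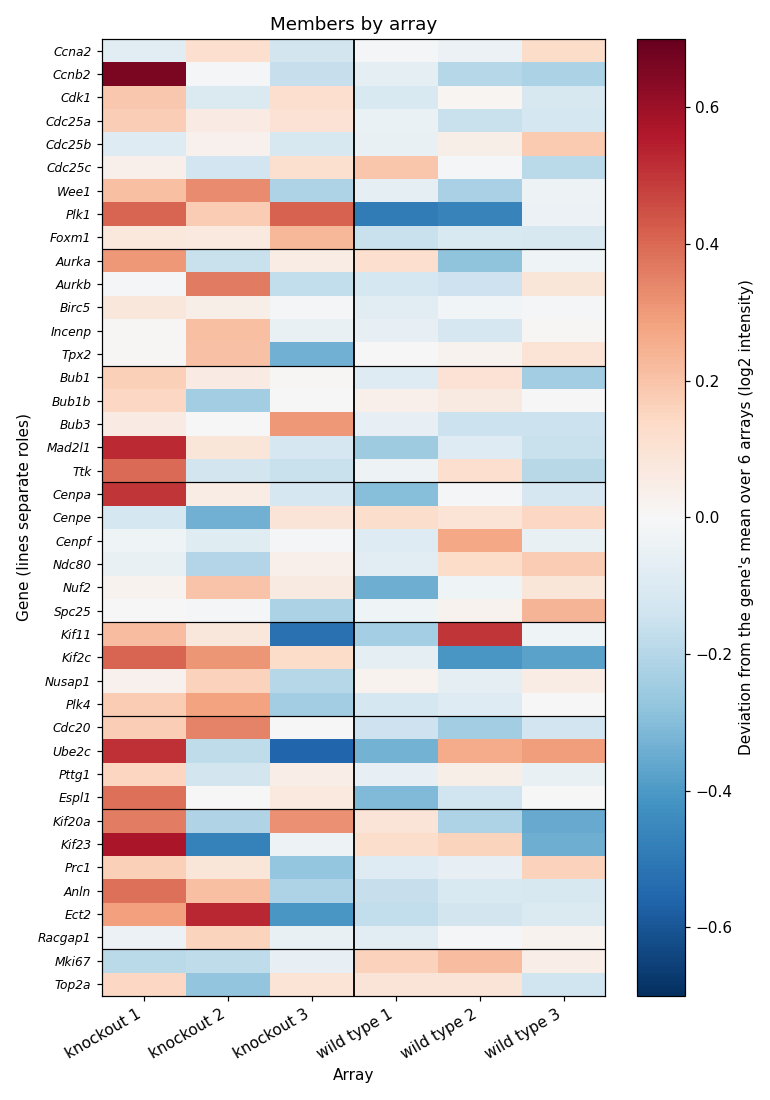
Deviation of each member from its own mean over the 6 arrays (colour, log2 intensity), with a row for each gene in order of role and a column for each array. Knockout replicate 1 holds the highest value in 19 of the 41 rows, and Mki67 and Cenpe have every knockout value under every wild-type value.

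Other genes of mitosis, a list of 101 with 95 tested, were positive about as often as the members. In this list 3 rose (3.16%, against 1.28% of all tested genes) and 0 fell (against 2.27%). Of the 95, 67 were positive (70.5%), and the median difference was 0.10. Ccnf, or cyclin F, the substrate receptor of a ubiquitin ligase, read log2 8.44, 8.45 and 8.56 in knockout and 8.07, 7.45 and 7.46 in wild type. Its knockout arrays lay close together above all wild-type arrays, and the gene rose by 0.82 ± 0.19 (limma adjusted p = 0.0299). Cdca5, or sororin, which protects cohesin, rose by 0.53 ± 0.12 (limma adjusted p = 0.0222), and Spc24, the fourth subunit of the NDC80 complex, by 0.50 ± 0.13 (limma adjusted p = 0.0409). Mad1l1, the partner of Mad2l1 at kinetochores, had a difference of 0.70 ± 0.20, short of the threshold (limma adjusted p = 0.0652). Without knockout replicate 1 or without wild-type replicate 1 there was 1 call in this list, and without wild-type replicate 2 or 3 there were 0. Cdca5 passed in 12, Ccnf in 12 and Spc24 in 10 of 18 alternative fits. Without knockout replicate 1 only Cdca5 of the 3 passed (limma adjusted p = 0.046), and without knockout replicate 3 neither Cdca5 nor Ccnf did.

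DNA replication genes, a list of 50 with 48 tested, were higher more often than the members by count, and this difference between lists was not tested. Of the 48, 4 rose (8.33%, against 1.28% of all tested genes) and 0 fell. Positive differences numbered 42 (87.5%), and the median difference was 0.20. In 23 (47.9%) all knockout arrays lay above all wild-type arrays, against 12.3% of all tested genes and 19.5% of the members. Mcm3, part of the MCM helicase, rose by 0.56 ± 0.11, Rpa2, of the complex that binds single-stranded DNA, by 0.48 ± 0.10, Tk1, the thymidine kinase, by 0.59 ± 0.14, and Cdt1, which loads the helicase, by 0.37 ± 0.10 (limma adjusted p = 0.0151, 0.0206, 0.0325 and 0.0486). The list had 0 calls when knockout replicate 1 or wild-type replicate 2 was left out, and 1 when wild-type replicate 1 or 3 was. Mcm3 passed in 13, Rpa2 in 11, Tk1 in 13 and Cdt1 in 5 of 18 alternative fits, and Cdt1 in none with an array left out.

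Of 28 tested genes of G1 and of cell cycle inhibition, 27 did not pass, and the median difference was 0.06. The exception was Cdkn2a, which encodes the inhibitor p16 and the p53 regulator ARF, and which met the filter through its knockout arrays alone. It read log2 4.70, 4.57 and 4.54 in knockout, and its wild-type arrays, at 3.66, 3.89 and 3.85, were all below the level of the filter. A gene that enters the test in this way had to differ, so its fitted difference of 0.80 ± 0.17 (limma adjusted p = 0.0199) is given as a description and not as a rise. Without wild-type replicate 1, 2 or 3 it no longer passed, and with any 1 knockout array left out it fell short of the filter. Cdk6, a kinase of G1, differed by -0.41 ± 0.12 (limma adjusted p = 0.0822), and Cdkn1a, which encodes the inhibitor p21, by 0.30 ± 0.11 (0.137).

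**Figure D4:**
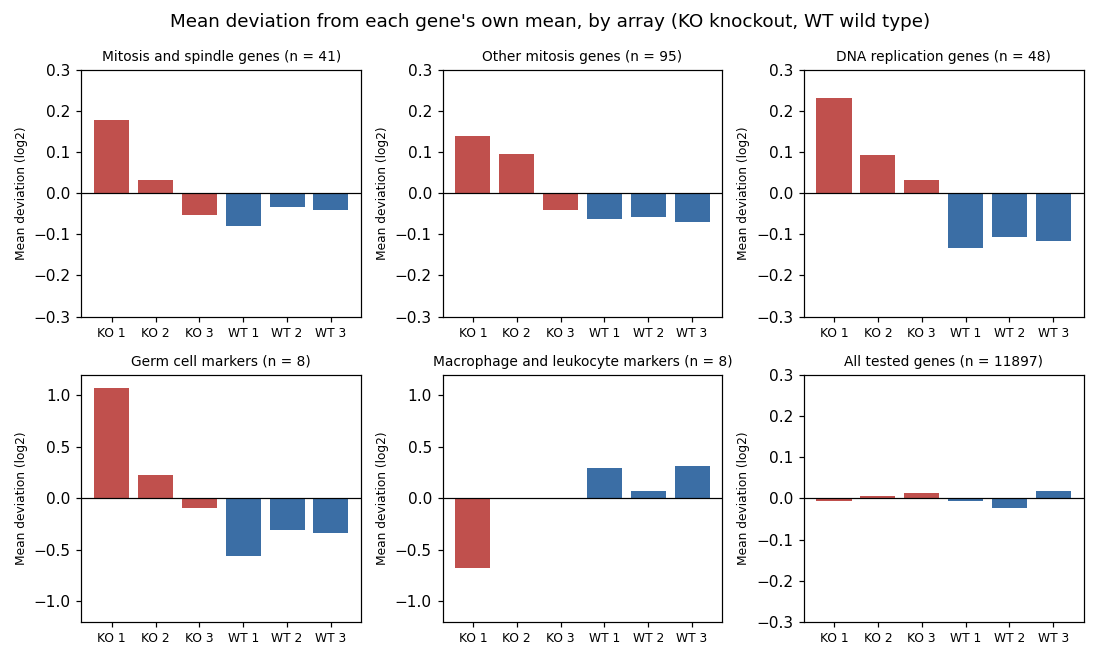
Mean deviation from each gene's own mean (log2 intensity, vertical axis) on each of the 6 arrays for the members, 2 further cell cycle lists, 2 marker lists and all tested genes; the marker panels have a wider axis. The members reach 0.18 on knockout replicate 1, the germ cell markers 1.08, and all tested genes stay near 0. The germ cell bar averages 8 markers whose differences ran from -0.21 to 4.22.

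Set beside the promoter letters, the 12 members with TTTGAA had a median difference of 0.19 with 7 positive, and the 21 without it one of 0.07 with 14 positive. The 24 with CCAAT had a median of 0.06 with 14 positive, and the 9 without it one of 0.14 with 7 positive. Both groups of each split spanned much of the same range, from -0.28 to 0.57 with TTTGAA and from -0.25 to 0.67 without it. Ccnb1, which has a promoter in the table and no array value here, is not among these 33.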

How the data were processed

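The authors deposited linear intensities made with GCRMA (background adjustment by probe base composition, normalization and summary), per the submitters' processing notes, where no version is named. Dim probe sets are drawn to a floor by this method, so differences near it are uncertain. For testing, log2 of each intensity was used. Of 45101 probe sets 64 controls were left out, and 22040 with log2 of at least 4 (intensity 16) on at least 3 of 6 arrays were tested. Platform annotation named 1 gene for 34945 probe sets, several for 932 and none for 9160. The test of knockout against wild type used limma 3.58.1 under R 4.3.3 (lmFit, eBayes with trend, genotype only, 2-sided) and Benjamini-Hochberg adjustment over all tested probe sets at 0.05. Errors are moderated standard errors, and the number of arrays limits the precision. Genes named are the members, Dmrt1, Xist, and from other lists those past the threshold and the 4 with the smallest p. Ddx4, Foxl2 and Amh were added after their values were seen. Also named as tissue markers are Sox9, Ptgds and Aard, none of which passed the threshold. The members and lists were chosen with earlier results of these data known. On simulated arrays with 22040 probe sets the fit recovered 7 of 50 changes of 0.5 log2 units, 27 of 50 of 1 and 47 of 50 of 2. The simulation changed 50 probe sets at each size, dim ones included, where 1455 were called in the data. With fewer changes the adjusted threshold is stricter, so these counts do not give the recovery for the members. No pair of arrays held identical values. Alternatives covered the filter, variance model, array weights, replicate number as a block, normalization, an added 16 before log2, choice of probe sets and leaving out each array.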

Additional observations from a re-analysis of the deposited data

How the results depend on the processing

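Over 18 alternative fits, 36 of the 41 members never passed, 5 passed in at least 1 (Kif2c, Plk1, Cdc20, Bub3 and Ect2), and none passed as lower. The count of members higher in knockout was 1 with no filter, robust eBayes, array weights, quantile normalization, after dropping probe sets open to several transcripts and with median centring on the tested probe sets (chosen after seeing the data), 2 with the average over each gene's probe sets and 3 with median centring. Uncalled members changed sign in 50 of 727 values. The members' median difference of 0.11 was 0.24 with median centring, and from 0.07 to 0.14 when 1 array was left out. Median centring gave 9 other mitosis, 15 replication and 2 G1 genes higher, with 506 genes higher and 128 lower in all. The G1 counts here and in the next paragraph include Cdkn2a where it passed. Since it met the filter through knockout arrays alone, that call is not given as a rise. Replication genes higher in knockout were 2 with eBayes without trend and 7 with array weights, and G1 genes 0 with the stricter filter and after dropping probe sets open to several transcripts. All genes higher were 380 with no filter and 235 with array weights. The causes were not tested.

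With 1 array left out, members higher ran from 0 to 2, other mitosis genes from 0 to 4, replication genes from 0 to 4, G1 genes from 0 to 1 higher and 0 to 1 lower, and all genes from 38 to 190 higher and 61 to 311 lower. The labels do not say whether the replicate numbers pair the samples. Deviations of same-numbered arrays correlated at -0.17, -0.25 and -0.17, and no array correlated best with its own number. Positive correlations were those of knockout 1 with wild type 2 (0.33), knockout 2 with wild type 3 (0.34) and knockout 3 with wild type 1 (0.24). Whether these reflect a shared origin or handling was not tested. With the replicate number as a block 0 members, 0 other mitosis, 0 replication and 0 G1 genes were higher, and 83 genes were higher and 137 lower in all. The block also ended the calls of the second Cdc20 and Ttk probe sets (limma adjusted p = 0.0594 and 0.0807) and of Ptprc, Mrc1 and Tek. The number of arrays limits what could be seen at differences near 0.5 log2 units.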
